A study of Homo sapiens with 15 samples.

Results

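The interleukin-1 (IL-1) family was followed here through 10 genes of its ligands, antagonist and receptors in BEAS-2B cells exposed to fine particulate matter (PM2.5). The genes were IL1A, IL1B, IL18, IL33, IL1RN, IL1R1, IL1R2, IL1RL1, IL1RAP and IL18R1. They were picked by name, with no threshold on their expression, and each matched 1 row among the 58219 genes of the count table. BEAS-2B is an immortalized human bronchial epithelial cell line, so the 3 independent experiments of each condition repeated the exposure in 1 line rather than in several people. Cells were grown submerged in serum-free bronchial epithelial medium on collagen, and the PM2.5 had been collected on filters in Beijing and extracted by sonication in water. The 15 libraries fall into 5 conditions of 3 experiments each: vehicle control for 24 h, PM2.5 at 1 µg/cm2 for 24 h, PM2.5 at 30 µg/cm2 for 24 h, vehicle control in a 7-day protocol, and PM2.5 at 1 µg/cm2 every day in the 7-day protocol. In the 7-day protocol cells were washed between exposures, and the sources differ on whether the last daily dose was the sixth or the seventh.

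IL-1 alpha and IL-1 beta, the products of IL1A and IL1B, are inflammatory cytokines that bind the receptor IL1R1 and its partner chain IL1RAP and thereby activate NF-kappaB and MAP kinases. IL1RN encodes the receptor antagonist, which occupies IL1R1 without signaling, and IL1R2 encodes a decoy receptor that binds the ligands and does not signal. IL-33 signals through the receptor ST2, encoded by IL1RL1, also with IL1RAP, and IL-18 signals through IL18R1 with a partner chain. In airway epithelium IL-1 alpha and IL-33 are held inside cells and can be released by damage, while IL-1 beta and IL-18 are cut to their active forms by caspase-1. Only RNA was measured, so storage, cutting and release of the proteins were not observed.

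Libraries held 21460981 to 34724765 counts (median 29243177), and the limit set by 3 counts in a library was 0.0864 to 0.140 CPM (counts scaled to a common library size, with effective sizes by TMM). All 10 epithelial markers examined were detected. Markers of airway differentiation were near the limit, with SCGB1A1 and MUC5B at 3 counts or fewer in every library. Markers of mast, lymphoid and endothelial cells summed to at most 0.421 CPM. Of 6 myeloid markers, PTPRC, CD68 and LYZ stayed at 3 counts or fewer in every library, while CD14, CSF1R and ITGAM were detected. CD14 averaged 7.71 CPM at 30 µg/cm2, its lowest mean, to 17.6 CPM at 1 µg/cm2 for 24 h. CSF1R had at most 33 counts in a library and ITGAM at most 74. The myeloid list summed to 4.60 to 24.2 CPM, most of it CD14. The 5 fibroblast markers were all detected and summed to 52.7 to 121 CPM. The sum of the epithelial markers was lower at 30 µg/cm2 and after daily PM2.5 than in the controls, but not at 1 µg/cm2 for 24 h. It was 3988 to 4425 CPM in the 24-h controls, 3431 to 4842 CPM at 1 µg/cm2 and 1772 to 2890 CPM at 30 µg/cm2. In the 7-day protocol it was 3544 to 4299 CPM in the controls and 2538 to 2745 CPM after daily PM2.5. In bulk RNA, fewer cells of a kind and less RNA per cell cannot be told apart. The second 24-h experiment stood apart from the other two, and it gave the lowest level of IL1A, IL1B, IL1R1, IL1RAP and IL18R1 in all 3 of the 24-h conditions.

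Per kilobase of exon, the order of the genes in unexposed cells was steep. In the 24-h controls IL18 stood at 51.2 ± 8.77 RPKM (CPM per kilobase of exon, mean ± SD, n = 3). IL1RAP followed at 2.67 ± 0.809 RPKM, IL1A at 1.90 ± 0.904 and IL1R1 at 1.40 ± 0.122. Neighbors among IL1RAP, IL1A and IL1R1 differed by less than their spread. IL18R1 (0.536 ± 0.231 RPKM), IL1B (0.474 ± 0.213) and IL1RL1 (0.358 ± 0.129) formed a lower step whose spreads overlapped, and IL1RN was at 0.0564 ± 0.0369 RPKM. IL33 and IL1R2 did not pass the filter on low counts and were not tested. IL33 had 2 to 12 counts in each of the 15 libraries and IL1R2 had 0 to 2, so no fold change is given for either. The IL33 libraries at 30 µg/cm2 (0.239 to 0.362 CPM) lay above the 24-h controls (0.0942 to 0.213 CPM), at 5 to 11 counts against 2 to 7. In experiment 3 the exposed library had 5 counts and its control 6. Of all tested genes 22.8% had libraries that did not overlap in that comparison. The cells carried RNA for both chains of the IL-1 receptor and hardly any for the decoy receptor, for IL-33 or, at 24 h, for the antagonist.

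**Figure D1:**
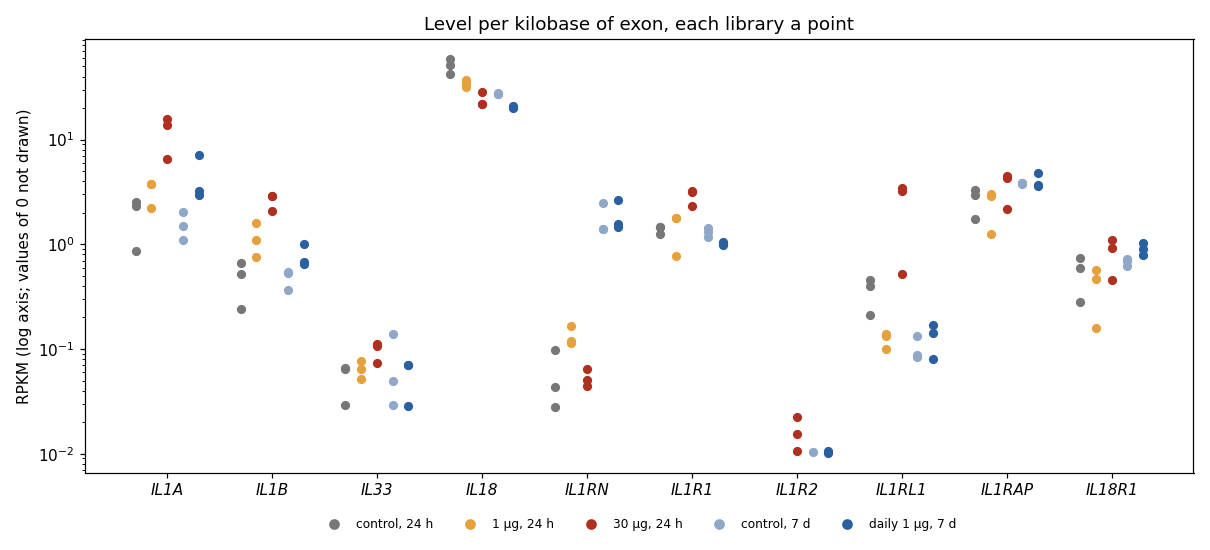
RPKM of the 10 IL-1 family genes on a log axis, each point a library and each color a condition. IL18 lies above every other gene in every library, between 20.2 and 59.4 RPKM. IL1R2 is lowest in every library, but its values of 0 are not drawn. IL1RN is higher in every 7-day library than in any 24-h library.

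To ask how the family responded to a single high exposure, PM2.5 at 30 µg/cm2 was compared at 24 h with vehicle control. IL1A, IL1B, IL1R1 and IL1RL1 rose and IL18 fell, while IL1RN, IL1RAP and IL18R1 did not pass the test. That is 5 of the 8 genes that could be tested, or 5 of the 10 listed. In the same comparison 8.07% of all 17599 tested genes passed, 3.82% higher and 4.24% lower. A gene was called changed at an adjusted p below 0.05 by edgeR's quasi-likelihood test with Benjamini-Hochberg adjustment over all tested genes, with a log2 fold change of at least 0.6 in either direction. Among the 8 tested members the same 5 were those whose exposed and control libraries did not overlap, a pattern shown by 22.8% of all tested genes. Of the 10 epithelial markers 5 fell and 0 rose in this comparison, and their part in these results was not tested.

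IL1A lies on chromosome 2 (chr2:112773915-112784590, minus strand, GRCh38). It stood at 4.94, 1.84 and 5.35 CPM in the control libraries of experiments 1, 2 and 3 and at 29.3, 13.8 and 33.1 CPM at 30 µg/cm2. Every exposed library was above every control, although experiment 2 was the lowest of each trio. The fit gave a 6.22-fold increase (log2 2.64, SE 0.464, adjusted p = 0.00262), and within experiments the log2 ratio was 2.57, 2.91 and 2.63. At this exposure IL1A reached 12.0 ± 4.82 RPKM and ranked next to IL18.

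IL1B, a neighbor of IL1A on the same strand (chr2:112829751-112836903), rose as well, at a lower level. Control libraries held 1.60, 0.753 and 2.05 CPM and exposed libraries 9.04, 6.38 and 8.95 CPM. The groups were well separated, with the lowest exposed library above 3 times the highest control. The fit gave a 5.45-fold increase (log2 2.45, SE 0.356, adjusted p = 0.000668), and the log2 ratio within experiments ran from 2.12 to 3.08. Over all 15 libraries the log2 CPM of IL1A and IL1B had a Pearson r of 0.928, the second highest among the 28 pairs of tested members after IL1RAP with IL18R1 (0.930). These libraries share conditions and experiments, so r is given as a description.

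Sequences of the start regions of both genes are shown because both genes rose at 30 µg/cm2. Each is 250 bases before to 50 bases after an annotated start, from RefSeq on GRCh38.p14, written 5′ to 3′ on the gene's strand. IL1A is chr2:112784444-112784743 and IL1B is chr2:112836730-112837029, both on the minus strand. Capitals mark matches, on either strand, to any of 5 short motifs: AP-1 (TGANTCA), the NF-kappaB consensus, the aryl hydrocarbon receptor core (GCGTG), the antioxidant response element core (TGACNNNGC) and the TATA box (TATAAA).
IL1A start region: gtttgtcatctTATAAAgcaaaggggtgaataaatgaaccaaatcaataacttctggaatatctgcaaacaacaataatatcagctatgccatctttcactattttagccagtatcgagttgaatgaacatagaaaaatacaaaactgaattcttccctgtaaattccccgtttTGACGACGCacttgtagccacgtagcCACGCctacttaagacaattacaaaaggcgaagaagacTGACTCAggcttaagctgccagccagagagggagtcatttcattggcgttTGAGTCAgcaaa
IL1B start region: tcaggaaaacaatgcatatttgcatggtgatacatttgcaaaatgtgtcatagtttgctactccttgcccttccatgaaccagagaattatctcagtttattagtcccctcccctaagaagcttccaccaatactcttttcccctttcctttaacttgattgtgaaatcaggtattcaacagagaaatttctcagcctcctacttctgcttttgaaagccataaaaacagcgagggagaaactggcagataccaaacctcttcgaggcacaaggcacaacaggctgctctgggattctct
The IL1A window held 2 AP-1 matches, at -12 to -6 and at 39 to 45 from the start, an antioxidant response element core at -76 to -68, an aryl hydrocarbon receptor core on the opposite strand at -50 to -46 and a TATAAA at -239 to -234. The IL1B window held none of the 5. Of 35114 such windows in the RefSeq table, 7.71% held an AP-1 match, 11.3% the NF-kappaB consensus, 36.5% the aryl hydrocarbon receptor core, 13.3% the antioxidant response element core and 11.5% TATAAA. A match is a run of letters and not a measured binding site, and no match says only that these letters are not in this window. RefSeq windows matched 4 of the 5 called members, IL1A (2 overlapping windows), IL1B, IL1R1 (4 windows, not shown) and IL1RL1 (2 windows).

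IL18, on chromosome 11 (chr11:112143251-112164117, minus strand), went the other way. It fell from 137, 110.3 and 156.2 CPM in the controls to 57.3, 75.4 and 57.6 CPM at 30 µg/cm2. All exposed libraries were below all controls, and the gap was narrowest in experiment 2. On the log2 scale the fitted change was -1.08 (SE 0.139, adjusted p = 0.000285), which left 0.472 of the control level. Even so IL18 remained the gene with the highest level per kilobase, at 24.1 ± 3.95 RPKM.

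The antagonist IL1RN (chr2:113107214-113134016) did not pass the test. It had 3, 3 and 9 counts in the control libraries and 5, 6 and 3 counts at 30 µg/cm2, or 0.183 ± 0.120 and 0.172 ± 0.0329 CPM, close to the limit of detection. The log2 fold change was -0.07 with an SE of 0.551 (adjusted p = 0.966). At these counts changes larger than this error could also be missed. At 1 µg/cm2 for 24 h a log2 difference of 1.21 in IL1RN did not pass.

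Among the receptors IL1RL1, which encodes the IL-33 receptor ST2, had the largest fitted change. Control libraries held 2.65, 1.22 and 2.30 CPM and exposed libraries 18.5, 3.02 and 19.9 CPM. Experiment 2 rose far less than the other two, yet it too exceeded all controls. The fit gave a 6.62-fold increase (log2 2.73, SE 0.539, adjusted p = 0.00542), with log2 ratios of 2.81, 1.30 and 3.11 within experiments. When only the control and 30 µg/cm2 libraries entered the fit, the call was lost (adjusted p = 0.0958) at a log2 fold change of 2.74, where 2.23% of all genes passed. Gene-level counts do not separate the soluble and membrane forms of ST2.

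IL1RL1 and IL18R1 overlap on the plus strand of chromosome 2 (chr2:102311502-102352037 and chr2:102311529-102398775) and share 95 exon bases of a first exon, which is 1.65% of the exon bases of IL1RL1 and 2.18% of those of IL18R1. RefSeq gives IL1RL1 a start in that exon and another one further along, and both windows are shown because the counts cannot say which was used. They are chr2:102311313-102311612 and chr2:102337007-102337306, with capitals as above.
IL1RL1 start within the shared exon: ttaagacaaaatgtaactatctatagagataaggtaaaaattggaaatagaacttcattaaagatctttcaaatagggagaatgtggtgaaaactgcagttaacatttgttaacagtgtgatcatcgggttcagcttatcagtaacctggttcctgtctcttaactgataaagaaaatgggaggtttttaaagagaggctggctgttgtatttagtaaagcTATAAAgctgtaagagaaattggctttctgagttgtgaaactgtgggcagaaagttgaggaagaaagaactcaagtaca
IL1RL1 downstream start: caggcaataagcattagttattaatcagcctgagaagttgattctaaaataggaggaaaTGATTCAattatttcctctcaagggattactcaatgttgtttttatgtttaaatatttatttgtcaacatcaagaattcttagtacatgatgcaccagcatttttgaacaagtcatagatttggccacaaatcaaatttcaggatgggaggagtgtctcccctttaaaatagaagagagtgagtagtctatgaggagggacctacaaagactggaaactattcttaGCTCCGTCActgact
The first window held a TATAAA at -29 to -24 and no other match. The second held an AP-1 match at -191 to -185 and, on the opposite strand, an antioxidant response element core at 36 to 44.

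IL1R1, the signaling receptor for IL-1 alpha and IL-1 beta (chr2:102064544-102179874), rose 2.08-fold. Its controls were tight at 10.4, 8.90 and 10.4 CPM, and the exposed libraries held 22.6, 16.4 and 22.8 CPM. Groups did not overlap, and each experiment moved by a like amount, with log2 ratios of 1.12, 0.882 and 1.13. On the log2 scale the fitted increase was 1.06 (SE 0.250, adjusted p = 0.0154). This call was lost in 3 of the 6 fits that left out a library of either group and held in the other 3: the adjusted p was 0.0508 without control 2, 0.0689 without the exposed library of experiment 1 and 0.0681 without that of experiment 3.

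IL1RAP, the shared partner chain (chr3:190514051-190659750), stood at 38.0, 20.3 and 34.4 CPM in controls and at 49.9, 24.9 and 52.5 CPM at 30 µg/cm2. The ranges overlapped, with experiment 2 low in both, and the log2 fold change of 0.45 (SE 0.331) had an adjusted p of 0.453. IL18R1, the IL-18 binding chain, had 2.59, 1.22 and 3.19 CPM in controls and 4.73, 1.98 and 4.02 CPM when exposed, and the log2 difference was 0.60 (SE 0.420, adjusted p = 0.432). Both were higher than the control of the same experiment in 3 of 3 experiments. With the experiment as a replicate block IL18R1 passed (log2 fold change 0.64, adjusted p = 0.0185), and 15.2% of all genes then passed. IL1RAP reached an adjusted p of 0.00910 in that fit but stayed under the fold threshold at 0.43.

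**Figure D2:**
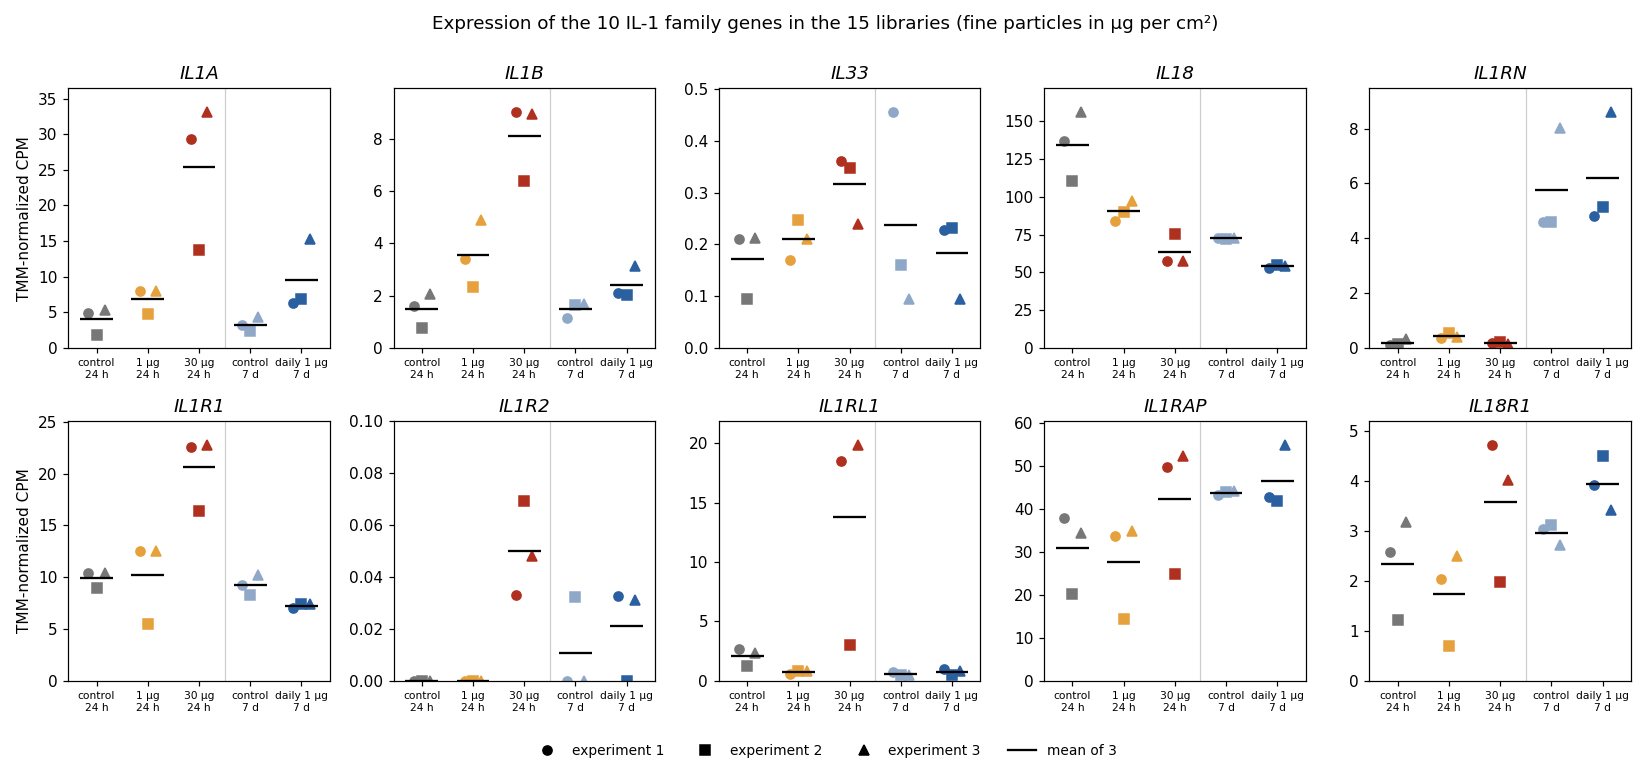
CPM of each gene in the 15 libraries, one panel per gene with its own linear axis from 0, points shaped by experiment and black lines at the mean of 3. IL1A, IL1B, IL1R1 and IL1RL1 are highest at 30 µg/cm2, IL18 is highest in the 24-h controls, and IL1RN is at most 0.545 CPM at 24 h and at least 4.60 CPM at 7 days.

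The effect of concentration was examined by comparing 30 with 1 µg/cm2 at 24 h. IL1A (log2 fold change 1.87, SE 0.449, adjusted p = 0.0172), IL1B (1.19, SE 0.336, adjusted p = 0.0386), IL1R1 (1.01, SE 0.249, adjusted p = 0.0198) and IL1RL1 (4.27, SE 0.599, adjusted p = 0.000679) were higher at the higher concentration. These 4 of 8 tested genes compare with 7.84% of all genes, 3.62% higher and 4.22% lower. IL1RL1 differed most, by 19.3-fold, and it was the 1 of these 4 genes whose libraries at 1 µg/cm2 all lay below the controls. IL18 was lower at 30 µg/cm2 in all 3 experiments and had an adjusted p of 0.0314, but its log2 fold change of -0.51 missed the fold threshold. With the replicate block 7 genes passed, adding IL1RN (-1.26, adjusted p = 0.0308), IL1RAP (0.64, adjusted p = 0.000787) and IL18R1 (1.08, adjusted p = 0.00103), against 15.6% of all genes. The number of calls depended on single libraries: 1 member passed without the 30 µg/cm2 library of experiment 1 or of experiment 3, 6 passed without that of experiment 2, and 0 passed when only these libraries were fitted. The share of all genes that passed moved too, to 4.02% and 3.94%, 15% and 0.918% in the same order. The IL1B call was lost when any of 10 of the 15 libraries was left out (adjusted p 0.0507 to 0.140). Of the 10 epithelial markers 3 fell and 0 rose here, and their part was not tested. The libraries at 30 µg/cm2 are those of the comparison with vehicle control, so the comparisons are not independent.

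**Figure D3:**
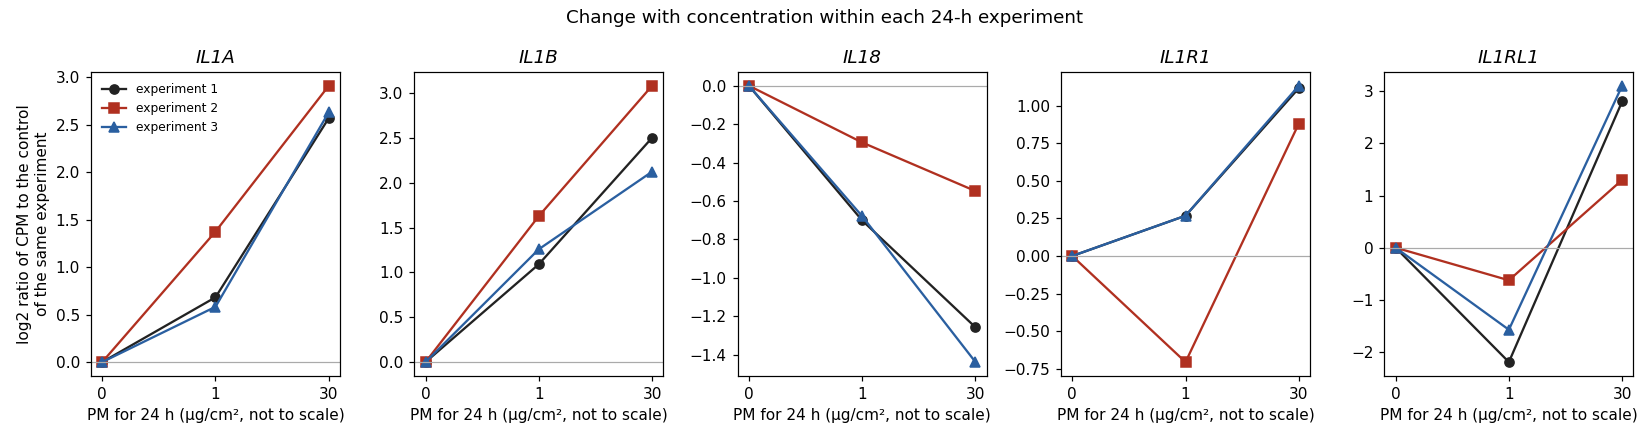
Log2 ratio of CPM to the control of the same experiment at 0, 1 and 30 µg/cm2 for 24 h (spacing of the concentrations not to scale), one line per experiment. IL1A and IL1B rise and IL18 falls at each step in all 3 experiments, while IL1RL1 is below 0 at 1 µg/cm2 and above 0 at 30 µg/cm2 in each.

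A single exposure to 1 µg/cm2 for 24 h gave no called gene among the 8 tested by edgeR's quasi-likelihood test, against 0.0625% of all genes (0.0455% higher and 0.017% lower). Of the members, 4 had an unadjusted p below 0.05, beside 534 of all 17599 tested genes. They were IL1B, IL18, IL1RN and IL1RL1, also the 4 whose libraries did not overlap with the controls, a pattern of 4.44% of all genes. IL1B stood at 3.40, 2.33 and 4.92 CPM, every value above the highest control of 2.05 CPM. The fitted log2 difference was 1.26 (SE 0.352, unadjusted p = 0.00310, adjusted p = 0.908), and it passed with the replicate block (1.27, adjusted p = 0.0184), where 0.420% of all genes did.

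IL1RL1 at 1 µg/cm2 stood at 0.578, 0.793 and 0.773 CPM, below the lowest control of 1.22 CPM. Its fitted log2 difference was -1.54 (SE 0.583, adjusted p = 1), the opposite sign to that at 30 µg/cm2, and with the block the adjusted p was 0.268. IL18 held 84.2, 89.9 and 97.5 CPM, all below the lowest control, and the log2 difference was -0.57 (SE 0.138, adjusted p = 0.458). IL1RN had 11 counts in each library against 3, 3 and 9, a log2 difference of 1.21 (SE 0.485, adjusted p = 1). IL1A, at 7.92, 4.76 and 8.01 CPM, was higher than its own control in 3 of 3 experiments (log2 fold change 0.76, SE 0.451, adjusted p = 1), while its libraries overlapped with the controls. IL1R1 did not move together, with log2 ratios of 0.268, -0.707 and 0.268. Without the second 24-h experiment, IL1B (1.20, adjusted p = 0.0128), IL18 (-0.68, adjusted p = 0.000198) and IL1RL1 (-1.86, adjusted p = 0.00123) passed, where 2.11% of all genes did.

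Repeated exposure was examined by comparing daily 1 µg/cm2 with the 7-day vehicle control. No tested member passed, against 0.227% of all genes (0.102% higher and 0.125% lower). IL1A and IL18 had an unadjusted p below 0.05, as did 2102 of all 17599 tested genes. Of the 10 epithelial markers 2 fell and 0 rose, and their part in the following values was not tested. IL1A stood at 3.15, 2.31 and 4.33 CPM in the 7-day controls and at 6.32, 6.87 and 15.3 CPM after daily PM2.5. No exposed library overlapped with a control, and experiment 3 was highest in both groups. The fitted log2 difference was 1.54 (SE 0.456, unadjusted p = 0.00464, adjusted p = 0.182), a 2.90-fold difference. It passed with the replicate block (1.49, adjusted p = 0.00150), where 4.39% of all genes did, when only the 7-day libraries were fitted (1.54, adjusted p = 0.00821, 6.23% of all genes) and by DESeq2 (1.53, adjusted p = 0.0333, 1.41% of all genes).

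IL1B after daily exposure stood at 2.11, 2.02 and 3.12 CPM against 1.14, 1.64 and 1.69 CPM. All exposed libraries were higher, by 0.69 on the log2 scale (SE 0.350, adjusted p = 0.468, or 0.0524 with the block). IL18 held 53.0, 54.8 and 54.4 CPM against 72.7, 72.3 and 72.4 CPM, groups far tighter than at 24 h, and the log2 difference was -0.42 (SE 0.138, adjusted p = 0.231). IL1R1 was lower in 3 of 3 experiments (9.25 ± 0.984 against 7.24 ± 0.237 CPM, log2 fold change -0.35, adjusted p = 0.625). IL18R1 was higher in 3 of 3 (2.96 ± 0.206 against 3.95 ± 0.538 CPM, 0.42, adjusted p = 0.743). These 5 genes had groups that did not overlap, as did 42.9% of all genes. IL1RN stayed at 4.60, 4.60 and 8.03 CPM in controls and 4.80, 5.14 and 8.61 CPM after exposure (log2 fold change 0.11, SE 0.316). IL1RL1 (0.37, SE 0.615) and IL1RAP (0.09, SE 0.329) also did not pass.

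Whether daily and single exposure to 1 µg/cm2 differed in effect was tested as an interaction. By edgeR's quasi-likelihood test 0 genes of any kind passed (0%), with 1245 genes at an unadjusted p below 0.05 and 62 genes called by DESeq2, none of them a member. Among the members the log2 difference (7-day response minus 24-h response) was largest for IL1RL1, at 1.91 (SE 0.848, unadjusted p = 0.0412, adjusted p = 0.698). With the replicate block 1.03% of all genes passed and again no member. Without the second 24-h experiment IL1RL1 (2.24, adjusted p = 0.00187) and IL1R1 (-0.63, adjusted p = 0.00910) passed, where 9.84% of all genes did. For IL1A the difference was 0.77 (SE 0.636) and for IL1B it was -0.57 (SE 0.495), so the responses of the agonists at the 2 times were not told apart.

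**Figure D4:**
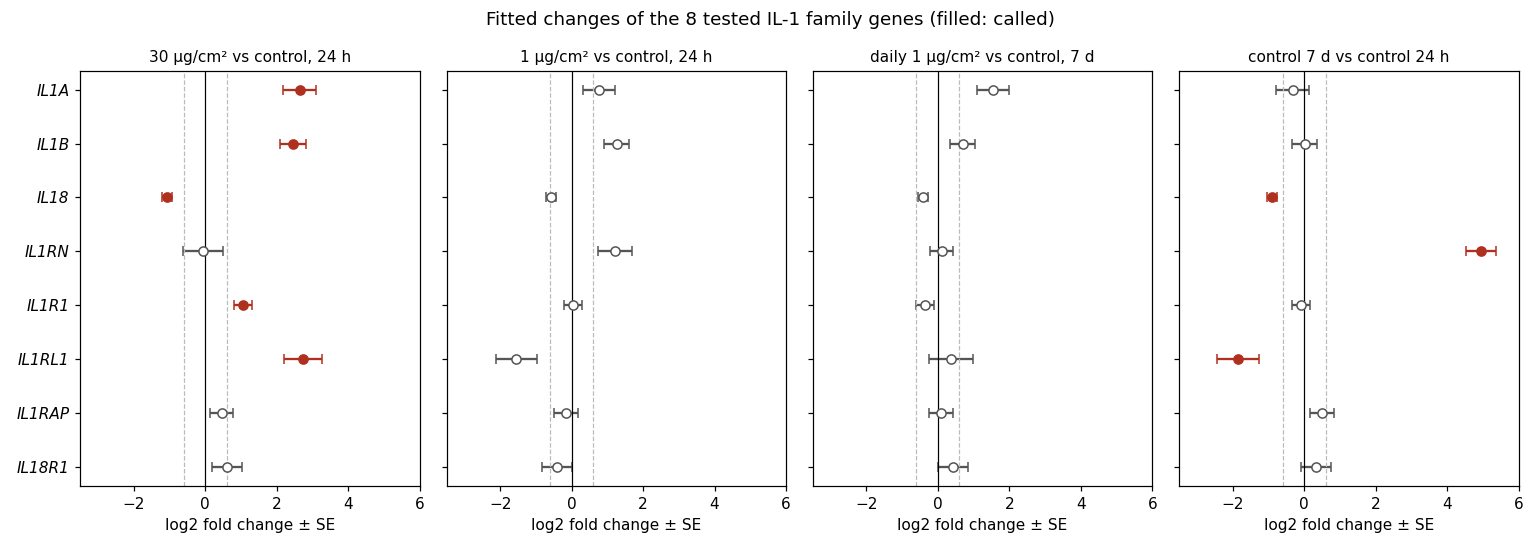
Fitted log2 fold changes with standard errors for the 8 tested genes in 4 comparisons, red filled points called and dashed lines at 0.6 and -0.6. At 30 µg/cm2 IL1A, IL1B, IL1R1 and IL1RL1 lie to the right and IL18 to the left, nothing is called at 1 µg/cm2 or after daily exposure, and IL1RN stands at 4.94 between the 2 controls.

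Between the vehicle controls of the 2 protocols, the largest fitted change among the members was that of the antagonist. IL1RN rose from 0.0903, 0.141 and 0.319 CPM in the 24-h controls to 4.60, 4.60 and 8.03 CPM in the 7-day controls, with no overlap. On the log2 scale this was 4.94 (SE 0.427, adjusted p = 8.06e-06), a 30.8-fold difference from a level of 3 to 9 counts. Without the 24-h control of experiment 3, the one with 9 counts, it was 5.61, and without that of experiment 1 it was 4.53. The 24-h controls lay under the filter's minimum count of 10. IL1RN was thus kept through conditions where it was higher, the 7-day controls among them, and its adjusted p carries that limit. IL18 fell (log2 fold change -0.89, SE 0.139, adjusted p = 0.000425) to 72.7, 72.3 and 72.4 CPM. IL1RL1 fell as well, to 0.760, 0.482 and 0.502 CPM (-1.84, SE 0.588, adjusted p = 0.0309). The IL1RL1 call was lost in the current mode of edgeR (adjusted p = 0.0565) and when any of 5 of the 6 control libraries was left out (adjusted p 0.0543 to 0.101). IL1A (-0.32, SE 0.458), IL1B (0.01, SE 0.361), IL1R1 (-0.10, SE 0.249), IL1RAP (0.50, SE 0.330) and IL18R1 (0.33, SE 0.420) did not pass. These 3 calls among 8 tested genes stand against 21.9% of all genes, 11.1% higher and 10.8% lower. The control libraries of IL1RN, IL18, IL1RL1 and IL1RAP did not overlap between the protocols, as for 52.3% of all genes. Of the 10 epithelial markers 4 were higher and 3 lower at 7 days. Time in culture, handling and the run of experiments cannot be told apart between the protocols.

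Set per kilobase, the antagonist was scarce beside the agonists at 24 h, near to them in the 7-day controls and lower again after daily PM2.5. The 24-h ratios rest on 3 to 11 IL1RN counts in a library. The ratio of IL1RN to the sum of IL1A and IL1B (RPKM) was 0.00977 to 0.0392 in the 24-h controls, 0.0221 to 0.0560 at 1 µg/cm2 and 0.00239 to 0.00747 at 30 µg/cm2. In the 7-day controls it was 0.762 to 0.954, and after daily PM2.5 it was 0.322 to 0.406. The lowest ratio of each protocol came from the exposed library with the most IL1A, and neither the 30 µg/cm2 nor the daily libraries overlapped with their controls. IL1A exceeded IL1B per kilobase in all 15 libraries, by 2.06 to 7.14 times. These ratios were computed after the values had been seen and were not tested.

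Across the 5 conditions the order of the levels (CPM) differed from gene to gene. IL1A ran from 25.4 ± 10.2 at 30 µg/cm2 through 9.49 ± 5.02 (daily), 6.90 ± 1.85 (1 µg/cm2), 4.04 ± 1.92 (24-h control) to 3.27 ± 1.01 (7-day control), and every neighboring pair in this order overlapped. IL1B was 8.13 ± 1.51 at 30 µg/cm2, clear of the next at 3.55 ± 1.30 (1 µg/cm2), which overlapped with 2.42 ± 0.611 after daily exposure, and the controls stood at 1.49 ± 0.305 (7-day) and 1.47 ± 0.660 (24-h). IL18 ran from 134.5 ± 23.0 in the 24-h control to 54.1 ± 0.973 after daily exposure, and only the 7-day control and 30 µg/cm2 overlapped as neighbors. IL1RAP (27.6 to 46.6) and IL18R1 (1.74 to 3.95) had their highest means after daily exposure and their lowest at 1 µg/cm2 for 24 h, with every neighboring pair overlapping.

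The rest of the pathway was described through 4 gene lists. Of 12 other IL-1 family genes 3 could be tested at 30 µg/cm2 and 0 passed in edgeR's quasi-likelihood test, beside 8.07% of all genes. Beside 4161 of all 17599 tested genes, 1 of the 3 had an unadjusted p below 0.05. That was IL1RL2, the receptor for IL-36, at 0.843, 0.659 and 0.638 CPM in controls and 2.30, 1.14 and 2.39 CPM when exposed (log2 fold change 1.43, SE 0.434, adjusted p = 0.0520). It passed with the block (1.42, adjusted p = 0.00681), where 15.2% of all genes did. The IL-18 binding protein gene IL18BP (0.28, adjusted p = 0.641) and the inhibitory receptor gene SIGIRR (0.20, adjusted p = 0.834) did not pass. IL36A, IL36B, IL36G, IL36RN, IL37, IL1F10, IL18RAP, IL1RAPL1 and IL1RAPL2 were too low to test.

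Of 17 genes for cutting and release of the cytokines (caspases, inflammasome sensors, gasdermins, calpains) 14 were tested at 30 µg/cm2 and 0 passed, with 5 at an unadjusted p below 0.05 and a median log2 fold change of 0.09 against 0.03 for all genes. Of all 17599 tested genes 8.07% passed and 4161 had an unadjusted p below 0.05. The caspase-1 gene CASP1 (-0.87, SE 0.273, adjusted p = 0.0606) and the sensor gene NLRP1 (1.41, SE 0.455, adjusted p = 0.0667) passed with the block (-0.95, adjusted p = 0.000223, and 1.23, adjusted p = 0.00552). No other gene of the list did, beside 15.2% of all genes, and both CASP1 and NLRP1 were chosen after their values were seen. NLRP1 stood at 5.06, 4.14 and 4.92 CPM in the controls and at 16.7, 3.92 and 17.1 CPM when exposed. It thus did not rise in experiment 2, and the groups overlapped. The calpain gene CAPN1 (-0.54, adjusted p = 0.0252) missed the fold threshold. Both CASP1 and NLRP1 were lower in the 7-day than in the 24-h controls (-0.77, adjusted p = 0.0480, and -1.47, adjusted p = 0.0326), as was the calpain gene CAPN2 (-0.67, adjusted p = 0.0222). Of all genes 10.8% were lower there.

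Of 21 genes that carry or restrain the signal of the receptors, 4 rose at 30 µg/cm2 and 0 fell, beside 3.82% higher and 4.24% lower among all genes. They were TNFAIP3 (log2 fold change 1.35, SE 0.200, adjusted p = 0.000765), NFKBIZ (1.25, SE 0.246, adjusted p = 0.00523), IRAK2 (1.21, SE 0.289, adjusted p = 0.0158) and ZC3H12A (0.76, SE 0.129, adjusted p = 0.00207). IRAK2 encodes a kinase of the receptor complex and NFKBIZ a nuclear cofactor of NF-kappaB, while the products of TNFAIP3 and ZC3H12A limit NF-kappaB signaling and inflammatory mRNA. The adaptor MYD88 (-0.35, adjusted p = 0.0781) and the remaining kinases and ubiquitin ligases did not pass, and the median of the list was 0.27. With the block TAB3 also passed, where 7.36% of all genes were higher and 7.87% lower. Between the 2 controls, where 21.9% of all genes passed, 3 of the 21 were higher at 7 days, PELI2 (1.52), NFKBIA (0.86) and TAB2 (0.65), and 3 were lower, IRAK1 (-0.76), IKBKG (-0.76) and ZC3H12A (-0.70), named after their values were seen.

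Of 24 genes that IL-1 is known to induce in epithelial cells, 23 were in the table, 22 were tested, 9 rose at 30 µg/cm2 and 0 fell, beside the same shares of all genes. The median log2 fold change was 1.14 against 0.03 for all genes. With the block 10 rose and 3 fell, where 7.36% of all genes were higher and 7.87% lower. The 3 were C3 (-0.80, adjusted p = 0.000425), a complement component, SAA1 (-0.94, adjusted p = 0.0259), an acute-phase protein gene, and BIRC3 (-0.61, adjusted p = 0.0111), an inhibitor of apoptosis. SAA1 averaged 135.7 ± 54.4 CPM in the 24-h controls and 105.7 ± 124.1 CPM at 30 µg/cm2. Its highest exposed library lay above every control, so SAA1 rose in the experiment of that library and the groups overlapped. The added gene that rose was CSF3 (2.14, adjusted p = 0.0152), a granulocyte growth factor. The 4 targets with the largest changes were LIF (3.35, SE 0.407, adjusted p = 0.000201), a cytokine of the IL-6 family, LCN2 (3.03, SE 0.551, adjusted p = 0.00323), an iron-binding antimicrobial protein, IL11 (2.87, SE 0.456, adjusted p = 0.00124), also of the IL-6 family, and CCL20 (2.58, SE 0.303, adjusted p = 0.000151), a chemokine. LIF went from 19.9, 9.23 and 19.6 CPM to 221, 70.2 and 208 CPM, again with experiment 2 lowest. Against 1 µg/cm2, 12 targets and 4 signaling genes were higher at 30 µg/cm2 and 0 lower, and 1 of the 14 cutting and release genes, CAPN1, was lower (log2 fold change -0.71, adjusted p = 0.00588), where 3.62% of all genes were higher and 4.22% lower. With the block 13 targets were higher and 2, SAA1 and C3, lower, and of the cutting and release genes NLRP1 and NLRP3 were higher and CASP1, PYCARD and CAPN1 lower, where 6.97% of all genes were higher and 8.58% lower. The target genes also answer to other signals, and no IL-1 blockade was part of the design, so their link to IL1A and IL1B was not tested.

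At 1 µg/cm2 for 24 h and after daily exposure 0 genes of any of these 4 lists passed in edgeR's quasi-likelihood test, beside 0.0625% and 0.227% of all genes. Of the 22 tested targets 3 and 7 had an unadjusted p below 0.05 in the 2 comparisons, beside 534 and 2102 of all 17599 tested genes. None of the lists had a called gene by the block at 1 µg/cm2 for 24 h, where 0.420% of all genes passed. After daily exposure CXCL2, CXCL3 and LCN2 passed with the block, where 4.39% of all genes did. LCN2 stood at 17.7, 18.2 and 14.8 CPM in the 7-day controls and at 51.0, 48.6 and 26.3 CPM after exposure (log2 fold change 1.31, SE 0.469, adjusted p = 0.277, or 0.0198 with the block). Between the controls LCN2 was also higher at 7 days, by 3.92 on the log2 scale (SE 0.559, adjusted p = 0.000231), while 6 targets were lower there. Of all genes 11.1% were higher and 10.8% lower at 7 days.

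**Figure D5:**
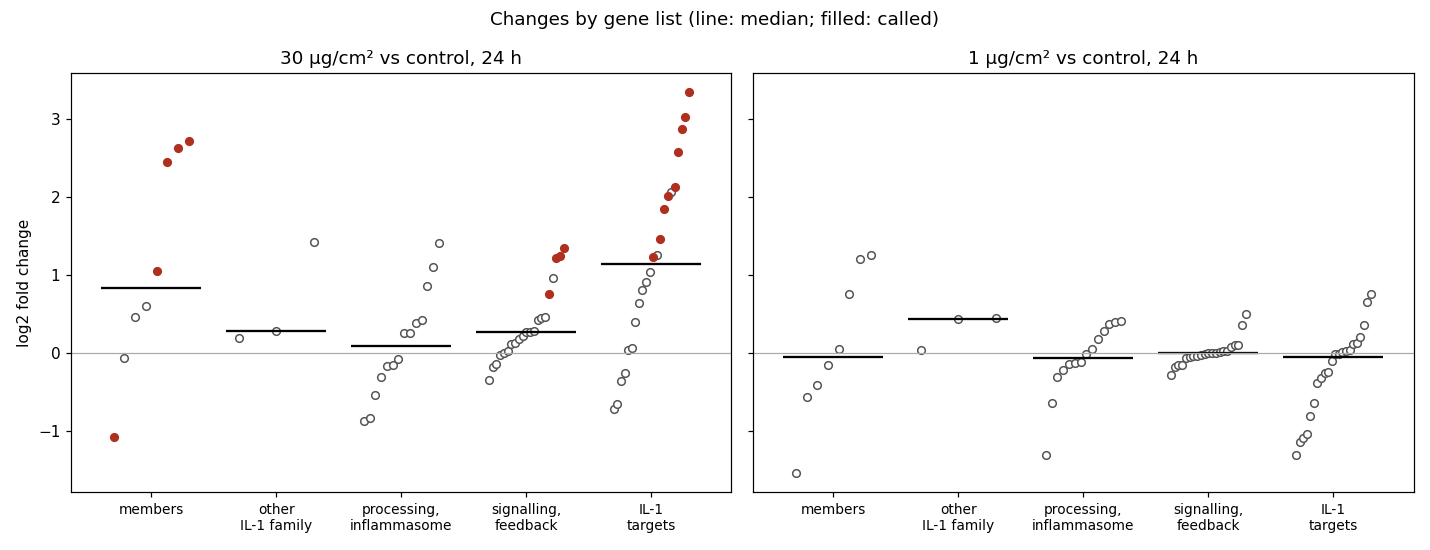
Log2 fold changes of the tested members and of the 4 other lists at 30 µg/cm2 (left) and 1 µg/cm2 (right) for 24 h, with lines at the list medians and red filled points called. On the left 9 targets, 4 signaling genes and 5 members are called, and on the right none is.

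The genes whose log2 CPM followed each called member most closely over the 15 libraries were found by Pearson r. For IL1A they were DHRS2 (r = 0.966), SERPINB2 (0.943) and CXCL3 (0.927), and for IL1B they were ALOXE3 (0.922), IL24 (0.918) and SERPINB2 (0.912). SERPINB2, which encodes the plasminogen activator inhibitor PAI-2, averaged 0.421 CPM in the 24-h controls and 12.4 CPM at 30 µg/cm2. IL18 was followed by EFEMP1 (0.979), SEMA3A (0.968) and ZFP36L2 (0.947), and EFEMP1, an extracellular matrix protein gene, went from 1162 to 250.7 CPM over the same conditions. IL1R1 was followed by LAMA1 (0.966), COG1 (0.941) and WDR55 (0.940). For IL1RL1 they were DUSP5 (0.963), a MAP kinase phosphatase gene at 30.5, 11.8 and 143.6 CPM in the control, 1 and 30 µg/cm2 conditions, CLCF1 (0.940) and ADTRP (0.939). The DUSP5 means dipped at 1 µg/cm2 as those of IL1RL1 did. The libraries share conditions and experiments, so these values describe likeness of pattern alone.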

How the data were processed

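RNA from 15 cultures of BEAS-2B cells was sequenced as poly-A libraries with single-end reads of 50 bases. The authors aligned reads with STAR and counted them per gene with featureCounts, and the deposited values are raw counts per gene with no normalization. The processing notes name hg19 and the methods GRCh38, while the coordinates in the deposited table match GRCh38 for 99.96% of genes. The strand setting and annotation release are not given in the sources used here.

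Computed here were TMM library sizes, CPM and RPKM, and edgeR 4.0.16 quasi-likelihood tests (earlier mode, R 4.3.3) with 1 mean per condition over all 15 libraries. Genes were kept by filterByExpr with a minimum count of 10, which left 17599 of 58219. Each SE was derived from the log2 fold change and its F statistic, and log2 CPM for correlations used a prior count of 2. Adjusted p-values are Benjamini-Hochberg values over all tested genes, and changed means adjusted p below 0.05 with a log2 fold change of at least 0.6 in size. DESeq2 1.42.0 and the settings named in the closing section were alternatives. Code was tested on simulated data.

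Replicate numbers mark experimental batches in the series' design, so they pair libraries within each protocol. Deviations of same-numbered libraries from their condition means correlated at 0.201 to 0.721 at 24 h and 0.121 to 0.181 at 7 days, against -0.683 to 0.453 and -0.127 to -0.0341 for different numbers, the positive ones at 24 h all between experiments 1 and 3. The member genes, gene lists and alternatives were chosen with earlier results of these data known. Named were all members, the other family genes, at most 4 called genes per list and direction at 30 µg/cm2, and the 3 tested genes most like each called member. Other genes named were chosen after their values were seen.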

Additional observations from a re-analysis of the deposited data

Results flagged for a closer look

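CAPN1, a calpain gene on the list for cutting and release of the cytokines, was marked because all 3 exposed libraries were higher than all controls after 1 µg/cm2 for 24 h (164.71 to 190.85 CPM in controls and 191.23 to 215.68 CPM exposed) and lower than all controls after daily exposure (231 to 237 CPM in controls and 132 to 180 CPM exposed). At 24 h the groups nearly met, at 190.85 and 191.23 CPM. The rule looked at direction alone, so the opposition of the 2 directions was not tested by it. Groups that did not overlap were found for 4.44% of all genes at 1 µg/cm2 for 24 h and for 42.9% after daily exposure. The fitted difference of the log2 responses was -0.72 (SE 0.197), which did not pass by edgeR's quasi-likelihood test (adjusted p = 0.417) and passed with the replicate block (-0.73, adjusted p = 0.0475), where 1.03% of all genes did. Without the block CAPN1 was also the 1 gene of its list called lower at 30 than at 1 µg/cm2 (-0.71, SE 0.140, adjusted p = 0.00588), where 4.22% of all genes were lower.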

How the results depend on the processing

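The 8 tested members were refitted under 9 kinds of alternative (RLE scaling, no filter on low counts, the replicate block, only the libraries compared, the current edgeR mode, the likelihood ratio test, DESeq2, the second 24-h experiment left out, and each of the 15 libraries left out), with 1095 log2 fold changes in all over the 6 comparisons, of which 1021 kept their direction and side of the threshold, 28 lost a call, 20 gained one and 26 changed sign, none of these called in either fit. Between the controls IL1B (0.01) was -0.016 with RLE scaling, -0.0063 with only the libraries compared, -0.0058 in the current mode, -0.017 by DESeq2, -0.29 without the second 24-h experiment and -0.30 to 0.29 with a library left out. IL1R1 at 1 µg/cm2 was -0.0049 with the block and -0.13 to 0.34 with a library left out. Ranges with a library left out also spanned 0 for IL1RN at 30 µg/cm2 (-0.46 to 0.61) and after daily exposure (-0.21 to 0.42), and for IL1RAP at 1 µg/cm2 (-0.37 to 0.15), after daily exposure (-0.053 to 0.16) and in the difference of responses (-0.058 to 0.46). At 30 µg/cm2 against control the number of members called was 5, with 4 to 6 under the alternatives and 4 to 5 with a library left out. At 1 µg/cm2 against control it was 0, with 1 under the replicate block, 3 without the second 24-h experiment and 0 with a library left out. At 30 against 1 µg/cm2 it was 4, with 7 under the replicate block, 0 with only the libraries compared and 1 to 6 with a library left out. After daily exposure it was 0, with 1 under the replicate block, with no filter, with only the libraries compared and by DESeq2, 2 without the second 24-h experiment and 0 with a library left out. For the difference of responses it was 0, with 2 without the second 24-h experiment. Between the controls it was 3, with 2 to 3, and no paired analysis was possible because their experiments are separate. The cause of these differences was not tested. Over all genes, the calls were 1420, 11, 1379, 40, 0 and 3860 in the same order. They were 2681, 74, 2737, 773 and 181 with the replicate block, 360, 2, 149, 1029, 1 and 4240 with only the libraries compared, and 3430, 378, 3113, 1083, 1766 and 5564 without the second 24-h experiment. Depth limits IL1RN at 24 h, IL33 and IL1R2, each at or near the limit of 3 counts. With only the 24-h control and 30 µg/cm2 libraries fitted, IL1RN did not pass the filter and was not refitted. In that comparison it had 22 refits, and each other tested member had 23.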

Other observations

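IL36RN, the antagonist of the IL-36 receptor, had 13 counts (0.405 CPM) in 1 library, that of the third experiment after daily exposure, and 2 counts or fewer in each of the other libraries. IL36G was at 0.157 CPM or less in every library. NLRP3, a sensor of the inflammasome, stood at 0.482, 0.283 and 0.390 CPM in the 24-h controls and at 1.28, 0.520 and 0.718 CPM at 30 µg/cm2, a log2 fold change of 1.11 (SE 0.647) that did not pass by edgeR's quasi-likelihood test (adjusted p = 0.336).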
